A study of Homo sapiens with 3 samples.

Results

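The genes described here are 10 epithelial keratins, KRT7, KRT8, KRT13, KRT15, KRT17, KRT18, KRT19, KRT20, KRT23 and KRT80, in colon cancer cells given decitabine, carboplatin or both. They were selected on a list of names after their expression on these arrays was known, so their changes are a description without a test. All probes that carry one of these names were used, which gave 15 probes for the 10 genes, out of 18611 genes with a named probe. The cells were YB5, which descend from 1 cell of the colon cancer line SW48 and hold a GFP reporter gene whose viral (CMV) promoter is shut off by DNA methylation. Decitabine is a deoxycytidine analog that depletes DNA methyltransferases, and carboplatin is a platinum compound that crosslinks DNA. Treated cells received 25 nM decitabine, 20 µM carboplatin or both drugs in 4 doses on days 1 to 4, control cells received DMSO, and all cells were harvested on day 6. Each treatment was measured on 1 Agilent 2-color array against a control, with treated RNA in Cy3, control RNA in Cy5 and no dye swap, and all 3 arrays lay on 1 slide. There were therefore no replicates and no tests, and drug and dye cannot be told apart.

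Keratins are the intermediate filament proteins of epithelial cells. A type I (acidic) keratin pairs with a type II (basic) keratin, and the pairs assemble into filaments that are anchored at desmosomes and hemidesmosomes and carry mechanical load. KRT8 and KRT18 are the pair of simple epithelia, including the colon, where KRT19 and KRT20 are also made. KRT7 marks other simple and ductal epithelia and is typically low in colon. KRT13 belongs to the suprabasal layers of internal stratified epithelia, KRT15 to basal cells, and KRT17 to skin appendages and injured epidermis. KRT23 and KRT80 are less studied keratins. Of the 10 genes, 3 (KRT7, KRT8 and KRT80) encode type II and 7 encode type I proteins.

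The arrays are called DAC-labelled (decitabine), Carbo-labelled (carboplatin) and DAC+Carbo-labelled (both drugs), because the labels of the single-drug arrays need care. Genes that the study names as raised or lowered by carboplatin, which were picked on these arrays, were counted on each array. Of 145 such raised genes, 124 were at least 1.5-fold higher on the DAC-labelled array, 19 on the Carbo-labelled array and 56 on the DAC+Carbo-labelled array. Of the 145 genes, 73 were read in columns 1 to 9 of the slide, and among the 92 genes with a probe outside these columns the counts were 54, 15 and 52. Of 53 lowered genes, 40, 4 and 37 were at least 1.5-fold lower in the same order. Which of the single drugs gave which profile cannot be told apart here. None of the 10 keratins is among those genes.

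The DAC-labelled array also stands apart by a strip at its left side. In columns 1 to 9 its median log2 change was 0.75, against −0.03 on the Carbo-labelled array and 0.01 on the DAC+Carbo-labelled array. The spread of repeated spots, a technical error within an array (pooled SD over 264 probes with 10 spots each), was 0.23, 0.08 and 0.08 on the log2 scale, and without the strip it was 0.08 on the DAC-labelled array. Of the keratin probes, 1 lies in the strip, the brightest KRT8 probe, which is given apart. Values are log2 of treated over control after loess within each array unless stated otherwise. A change of at least 1.5-fold (0.58 on the log2 scale) is counted as a rise or a fall, and the brightest probe of a gene stands for it.

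On the DAC+Carbo-labelled array 7 of the 10 keratins rose at least 1.5-fold and none fell, as the plot of changes by gene shows. KRT17 rose most (5.59-fold), followed by KRT80 (3.61-fold), KRT18 (2.21-fold), the KRT8 probe in the strip (2.12-fold), KRT19 (1.80-fold) and KRT15 (1.53-fold). KRT23, whose control was not well above background, was 1.79-fold higher by a bound defined below and has no place in that order. KRT7, KRT13 and KRT20, not well above background in either channel there, were not counted as changed. On the DAC-labelled array 3 rose (KRT8, KRT18 and KRT80), and on the Carbo-labelled array 2 were counted (KRT19, and KRT23 by its fitted change, although its bound was 1.44-fold), with none falling on either. With median centering in place of loess 3 and not 7 rose on the DAC+Carbo-labelled array, or 4 relative to the median of all genes under that centering, and by the scanner software's log ratio 6 and not 2 on the Carbo-labelled array, while leaving out columns 1 to 9 gave 3, 2 and 7. Among all 18611 genes the share up at least 1.5-fold was 10.6 % on the DAC-labelled array, 2.76 % on the Carbo-labelled array and 7.47 % on the DAC+Carbo-labelled array, and the share down was 4.67, 1.49 and 5.93 %. Since the genes were chosen on these same changes, nothing is read from their counts beside those shares. The median log2 change of the 10 keratins was 0.28, 0.41 and 0.95 in the same order, and that of all genes was 0.01, −0.01 and 0.00. With median centering the keratin median was 0.17 and 0.29 on the DAC- and Carbo-labelled arrays. With the scanner software's processed signals it was 0.52 and 0.62 there. On the DAC+Carbo-labelled array the keratin median moved too. With median centering it lay between the values of KRT15 (0.41) and KRT13 (0.47). With processed signals it lay between those of KRT7 (1.24) and KRT18 (1.28). Both channels were well above background on all 3 arrays for 6 of the 10 (KRT8, KRT15, KRT17, KRT18, KRT19 and KRT80), and the other 4 were at or near background on at least 1 array.

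**Figure D1:**
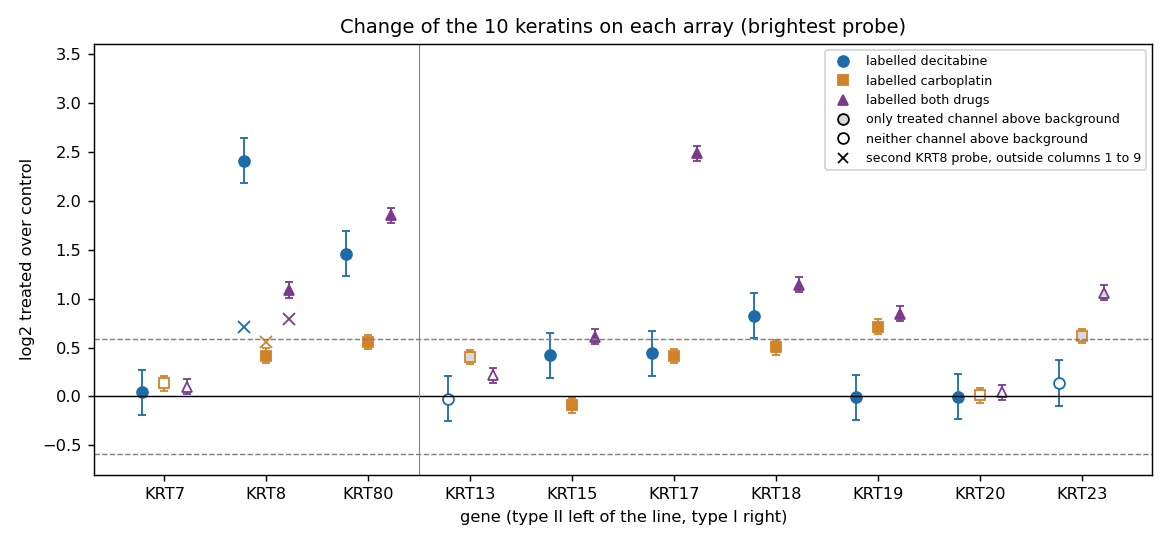
Log2 of treated over control for the brightest probe of each keratin on the 3 arrays (1 array a treatment). Bars give the technical SD of repeated spots within an array, and dashed lines mark 1.5-fold. Bars on the DAC-labelled array show 0.23, the SD with the strip included, against 0.08 without it. KRT17 and KRT80 stand highest on the DAC+Carbo-labelled array at 2.48 and 1.85, and the crosses give the second KRT8 probe, which lies outside columns 1 to 9.

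The probes that the results turn on are shown as the files give them, with their GRCh37 positions, because several keratins are near copies of each other and several have probes that disagree. The longest run shared between a probe of the 10 keratins and a probe of another keratin was 29 bases, between KRT17 and a KRT14 probe, and is set in capitals in both. Over the 56 bases in which these 2 probes overlap, 52 match. KRT17 lies at chr17:39776976-39777035 and the KRT14 probe at chr17:39739548-39739607, both on the minus strand.
KRT17: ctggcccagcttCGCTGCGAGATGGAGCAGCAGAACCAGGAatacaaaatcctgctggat
KRT14, second probe: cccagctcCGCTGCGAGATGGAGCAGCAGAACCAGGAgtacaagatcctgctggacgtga
The brightest KRT18 probe (chr12:53346116-53346554, plus strand, spanning an intron) and the KRT80 probe that was near background (chr12:52567546-52574353, minus strand, spanning introns) are all in lower case.
KRT18, brightest: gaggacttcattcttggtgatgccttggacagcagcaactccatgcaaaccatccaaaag
KRT80, second probe: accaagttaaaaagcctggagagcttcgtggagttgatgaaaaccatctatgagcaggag
For KRT23 (chr17:39078962-39079021, minus strand) the last 30 bases are shown, with the polyadenylation hexamer AATAAA in capitals.
KRT23: ttttgcatctattttgtagccAATAAAact
Every other probe of the 10 keratins shared at most 10 bases in a row with a probe of another keratin. Probes were compared with probes only, so a short run does not show which other RNA a probe can bind.

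KRT8 and KRT18, the partners of the simple-epithelial filament, rose past 1.5-fold on the DAC- and DAC+Carbo-labelled arrays and not, at their brightest probes, on the Carbo-labelled array (0.42 and 0.50). The brightest KRT18 probe had log2 control levels of 16.38, 16.44 and 16.37 on the DAC-, Carbo- and DAC+Carbo-labelled arrays, and treated levels of 17.21, 16.94 and 17.51. The control levels lay within 1.05-fold of each other, and all 3 treated levels lay above all 3 control levels. The changes were 0.83, 0.50 and 1.14, past 1.5-fold on the DAC- and DAC+Carbo-labelled arrays. The other KRT18 probes on the same strand gave 1.06, 0.78 and 1.34, and 1.07, 0.78 and 1.25. On the Carbo-labelled array these other probes were past 1.5-fold (1.72 and 1.71-fold) and the brightest was not. The 3 probes kept the same order of arrays, with the DAC+Carbo-labelled array highest and the Carbo-labelled array lowest. Another probe carrying the KRT18 name (chr12:53346570-53346630) runs on the opposite strand. Its control levels were 6.56, 6.69 and 6.56, close to background, and its changes of 0.34, 0.25 and 0.41 did not reach 1.5-fold.

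All spots of the 3 bright KRT18 probes were read in both channels from the scanner's low-gain scan, which the software scales up, and none was marked as saturated. Without the intensity-dependent loess, with each array only centered on its median, the brightest KRT18 probe gave 0.08, −0.22 and 0.39. This centering lowered the median of all genes by 0.14, 0.15 and 0.11 on the 3 arrays, and relative to that median the changes of the brightest KRT18 probe were 0.21, −0.07 and 0.50, so its rises past 1.5-fold were seen with loess and not with median centering.

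The KRT8 probe in the strip (chr12:53291026-53291085, minus strand, column 1) had control levels of 12.74, 14.04 and 14.04 and treated levels of 15.15, 14.45 and 15.13. Its control level was 2.47-fold lower on the DAC-labelled array than on the array with the highest level, while the treated level there was like that on the DAC+Carbo-labelled array. The change of 2.41 on the DAC-labelled array, 5.31-fold, stands beside that low control signal, and the part of the strip in it was not tested. On that array its treated channel came from the low-gain scan and its control from the standard scan, on the Carbo-labelled array the reverse, and on the DAC+Carbo-labelled array both came from the low-gain scan. With median centering the values relative to the median of all genes were 1.94, 0.00 and 0.61. The second KRT8 probe (chr12:53294461-53294995, column 53) gave 0.71, 0.56 and 0.79, that is 1.64, 1.47 and 1.73-fold, with control levels of 7.33, 7.18 and 7.26. At that probe the rise on the DAC-labelled array was of the size seen on the other arrays. With the strip left out and loess fitted again it gave 0.73, 0.55 and 0.79. Under the processed signals of the scanner software the probe in the strip gave 0.46 on the DAC-labelled array, which is no longer a rise past 1.5-fold.

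**Figure D2:**
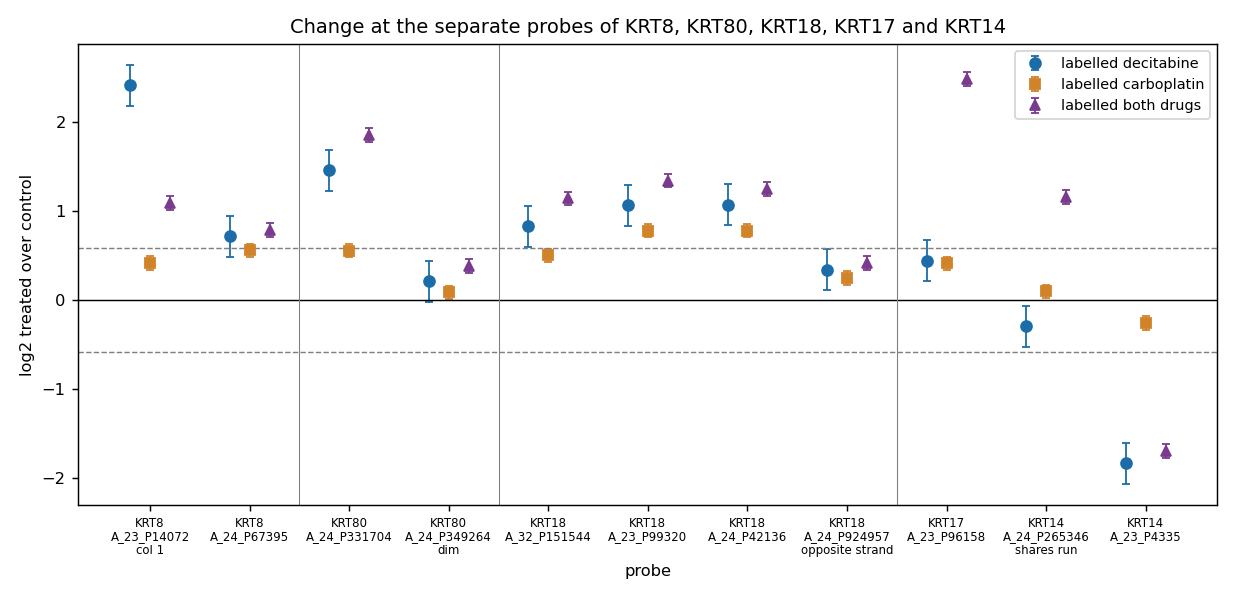
Log2 of treated over control at the separate probes of KRT8, KRT80, KRT18, KRT17 and KRT14 on the 3 arrays. Bars give the technical SD of repeated spots within an array, and dashed lines mark 1.5-fold. Bars on the DAC-labelled array show 0.23, the SD with the strip included, against 0.08 without it. The KRT8 probe in column 1 reaches 2.41 on the DAC-labelled array and its other probe 0.71, and the KRT14 probe that shares a run with KRT17 gave 1.15 on the DAC+Carbo-labelled array where the brighter KRT14 probe gave −1.69.

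KRT19, the small type I keratin of simple epithelia that lacks most of the tail domain, differed between the single-drug arrays. Its control levels were 14.42, 14.38 and 14.36 and its treated levels 14.41, 15.10 and 15.21. The control levels lay within 1.04-fold of each other, and the treated level was at the control level on the DAC-labelled array and above it on the others. The changes were −0.01, 0.71 and 0.85. On the DAC-labelled array its treated channel was read from the standard scan and its control channel from the low-gain scan, while on the other arrays both came from the low-gain scan, and the part of this in the difference was not tested. With median centering in place of loess the values were −0.63, 0.11 and 0.25, the first a fall past 1.5-fold. Relative to the median of all genes under that centering they were −0.50, 0.27 and 0.35, with no change past 1.5-fold on any array. The order of the arrays was the same.

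KRT80, a type II keratin, rose on the DAC-labelled array and on the DAC+Carbo-labelled array. Its brightest probe (chr12:52563485-52563544, minus strand) had control levels of 8.96, 8.81 and 8.88 and treated levels of 10.42, 9.36 and 10.73. All 3 treated levels lay above all 3 control levels, which spanned 1.11-fold. The changes were 1.46, 0.56 and 1.85, or 2.75, 1.47 and 3.61-fold. The second KRT80 probe, which lies upstream in the gene, was near background with changes of 0.21, 0.09 and 0.39, and only its treated channel on the DAC+Carbo-labelled array was well above background. RNA was primed with an oligo-dT primer for labeling, and the distance of a probe from the 3′ end was not analyzed as a factor.

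KRT17, a type I keratin of appendages and wounded epidermis, showed the widest gap between both drugs and the single drugs. Its control levels were 7.56, 7.48 and 7.71 and its treated levels 8.0, 7.89 and 10.20. The treated level on the DAC+Carbo-labelled array lay clear of the other 5 values, which spanned 7.48 to 8.0. The changes were 0.44, 0.41 and 2.48, or 1.36, 1.33 and 5.59-fold. Across 9 other ways of processing, the change on the DAC+Carbo-labelled array ranged from 2.19 to 2.85. Signal from KRT14 RNA at this probe cannot be told apart from KRT17 signal given the sequences shown above. The KRT14 probe with the shared run gave −0.29, 0.10 and 1.15, and the brighter KRT14 probe, elsewhere in that gene (chr17:39738744-39739364), gave −1.84, −0.26 and −1.69. These KRT14 probes thus moved in opposite directions on the DAC+Carbo-labelled array.

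KRT15, a type I keratin of basal cells, changed little with single drugs. Its control levels were 7.92, 8.03 and 7.88 and its treated levels 8.33, 7.94 and 8.49. The changes were 0.42, −0.09 and 0.61. The last of these lies above the 1.5-fold line by less than the technical SD, and with median centering it was 0.51 relative to the median of all genes. KRT23 on the Carbo-labelled array, at 0.62, was likewise just inside the line, and KRT80 and KRT18 there, at 0.56 and 0.50, were just outside it.

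KRT23 was near background in control cells. Its control channel was not well above background on any array, with levels of 6.31, 6.02 and 6.07, and its treated channel was so on the Carbo-labelled (6.64) and DAC+Carbo-labelled (7.13) arrays but not on the DAC-labelled array (6.44). By a bound, KRT23 was 1.44-fold higher on the Carbo-labelled array and 1.79-fold higher on the DAC+Carbo-labelled array. The bound divides the treated level by the weakest control signal that passed the background flag on that array. Where the probe's own control level is higher, it divides by that level, which gives the fitted change. Some stronger control signals failed the flag, such as KRT71 at 6.45 on the Carbo-labelled array, so such bounds are not strict lower limits. The fitted changes were 0.14, 0.62 and 1.06. The scanner software's log ratio, which subtracts background from so dim a control, gave 0.58, 3.65 and 4.29, and such values have no firm size.

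KRT7, KRT13 and KRT20 showed no rise past 1.5-fold in the main processing. The scanner software's log ratio, which has no firm size at signals this dim, gave 1.64 and 1.93 for KRT13 on the Carbo- and DAC+Carbo-labelled arrays and 1.24 for KRT7 on the latter. KRT7 had control levels of 7.57, 6.11 and 6.15 and treated levels of 7.61, 6.24 and 6.25. It was well above background in both channels on the DAC-labelled array and in neither channel on the others. KRT20 followed the same pattern, with control levels of 7.22, 6.28 and 6.18 and treated levels of 7.22, 6.30 and 6.23. Their changes on the DAC-labelled array were 0.04 and 0.00, since both channels were high together. By a like bound, the control level on the DAC-labelled array was above the other arrays 2.43-fold for KRT7 and 1.90-fold for KRT20. This is a gap between arrays and not between treated and control cells. Of 16836 genes with their brightest probe outside the strip, 35 (0.21 %) had a control level at least 1.5-fold higher on the DAC-labelled array than on both other arrays, and 22 of them, KRT7 and KRT20 included, passed the background flag in the control channel of that array only. The authors' deposited values, by contrast, gave 0.98 for KRT7 and 0.50 for KRT20 on the DAC-labelled array. KRT13 was near background throughout, with control levels of 6.46, 6.14 and 6.18. Only its treated channel on the Carbo-labelled array (6.54) was well above it, with a fitted change of 1.32-fold.

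**Figure D3:**
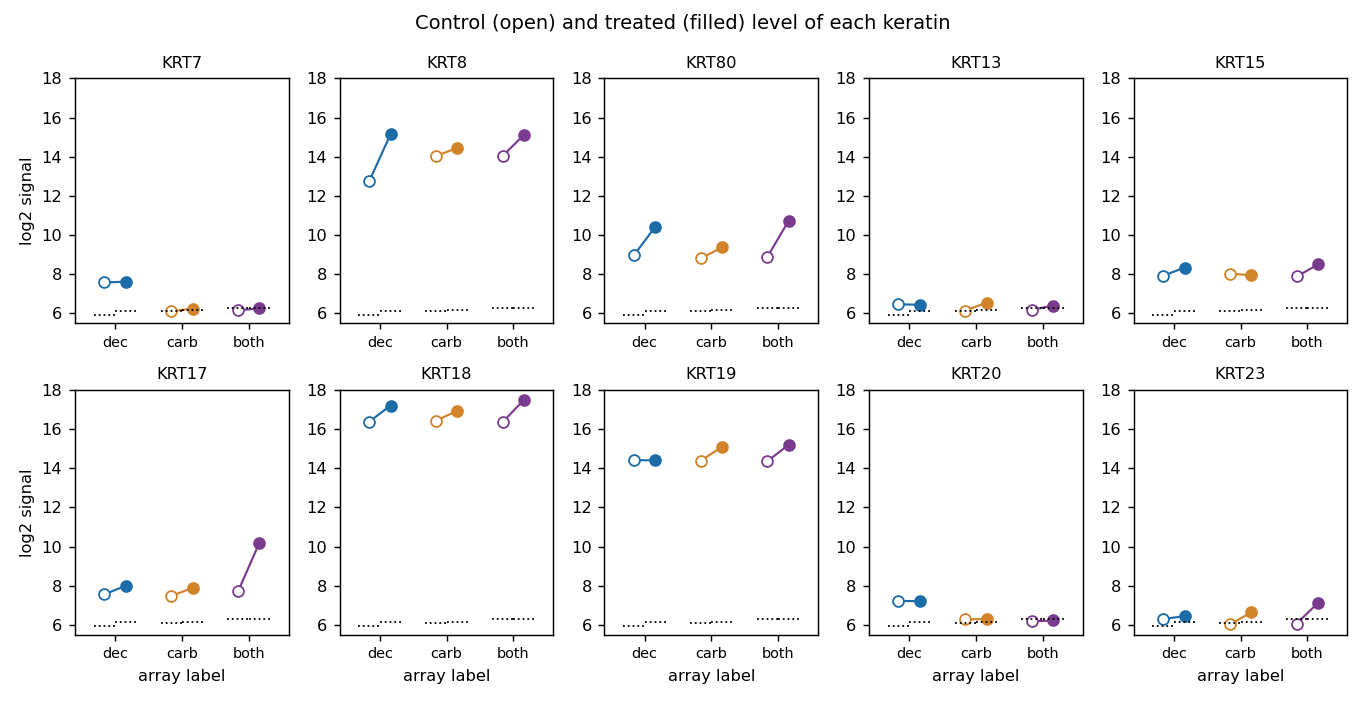
Log2 signal of the control (open) and treated (filled) channel of the brightest probe of each keratin on the DAC-labelled (dec), Carbo-labelled (carb) and DAC+Carbo-labelled (both) arrays, with dotted lines at the lowest signal well above background in that channel. KRT17 parts from its control on the DAC+Carbo-labelled array (7.71 to 10.20), the control level of KRT8 is low on the DAC-labelled array (12.74), and KRT7 lies above the dotted lines on that array alone.

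Seen by type, 2 of the 3 type II genes (KRT8 and KRT80) and 5 of the 7 type I genes (KRT15, KRT17, KRT18, KRT19 and KRT23) rose on the DAC+Carbo-labelled array. On the DAC-labelled array the counts were 2 of 3 and 1 of 7, and on the Carbo-labelled array 0 of 3 and 2 of 7. The shares of all genes up were 10.6, 2.76 and 7.47 % on the DAC-, Carbo- and DAC+Carbo-labelled arrays. With median centering KRT80, KRT17 and KRT23 stayed past 1.5-fold on the DAC+Carbo-labelled array, and relative to the median of all genes KRT8 did so too. The sizes within a type ranged from 0.10 to 1.85 for type II and from 0.04 to 2.48 for type I on the DAC+Carbo-labelled array.

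Of the other 44 keratins listed, 42 were measured, and most were not detected. Of these, 15, 14 and 17 had a channel well above background on the DAC-, Carbo- and DAC+Carbo-labelled arrays. On these arrays 1, 4 and 6 of the 42 rose at least 1.5-fold and 3, 0 and 3 fell, with median changes of 0.02, 0.03 and 0.06. The highest values belonged to KRT31, a hair keratin, with −0.03, 2.57 and 1.99, and to KRT5, the type II keratin of basal cells, with −0.31, 2.33 and 1.84. Both rose on the Carbo-labelled array and on the DAC+Carbo-labelled array, a pattern unlike that of KRT80 or KRT17. KRT19 (−0.01, 0.71 and 0.85) and, by fitted change, KRT23 (0.14, 0.62 and 1.06) also passed 1.5-fold on those arrays only. KRT81, KRT86 and KRT83 are closely related hair keratins whose signals may not be separable. On the DAC+Carbo-labelled array KRT81 gave 1.61 and KRT86 0.80 (0.45 with median centering relative to the median of all genes). KRT83, whose control was not well above background there, was 1.54-fold higher by the bound used for KRT23. KRT33A, another hair keratin, reached 0.62 on the Carbo-labelled array.

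KRT9, KRT10 and the brighter probe of KRT14 fell. KRT9, a keratin of palm and sole epidermis, changed by −1.51, −0.36 and −1.35, and KRT10, a keratin of differentiating epidermis, by −0.68, −0.30 and −0.66. The brighter probe of KRT14, the basal partner of KRT5, fell on the DAC- and DAC+Carbo-labelled arrays, whereas its other probe gave −0.29 and 1.15 there. KRT16, an injury-associated partner of KRT6, was read at a probe in column 1 of the strip with 1.58, 0.75 and 1.05, and at a probe in column 81 with 0.20, 0.42 and 1.11. The rise of KRT16 on the DAC+Carbo-labelled array was seen at both probes and those on the single-drug arrays only at the probe in the strip.

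**Figure D4:**
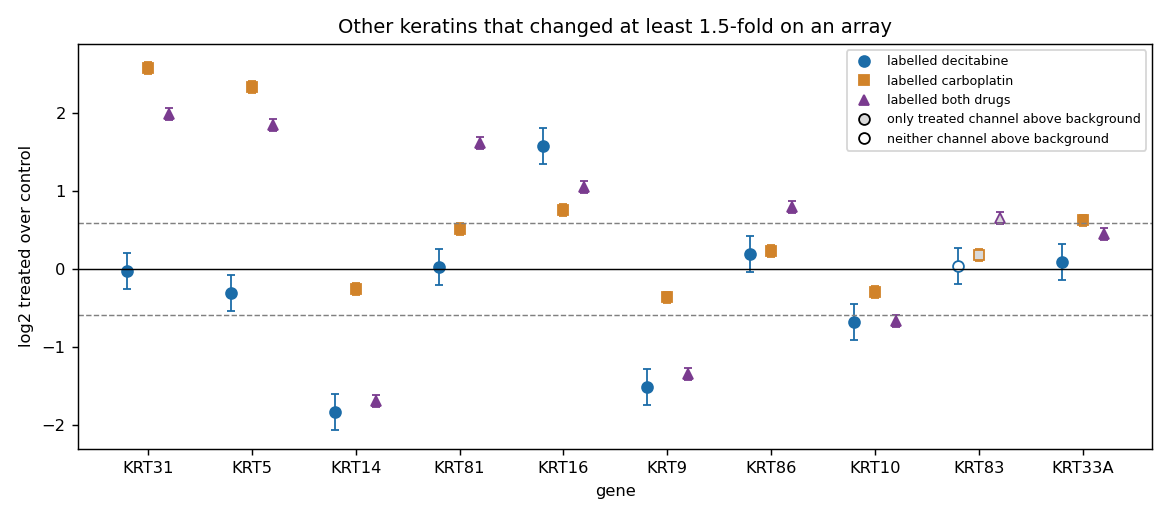
Log2 of treated over control for the brightest probe of the 10 other keratins that changed at least 1.5-fold on at least 1 array. Bars give the technical SD of repeated spots within an array, and dashed lines mark 1.5-fold. Bars on the DAC-labelled array show 0.23, the SD with the strip included, against 0.08 without it. KRT31 and KRT5 stand at 2.57 and 2.33 on the Carbo-labelled array, and KRT14 and KRT9 lie lowest at −1.84 and −1.51 on the DAC-labelled array.

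Genes whose products anchor keratin filaments were counted next. Of 15 desmosome genes, with median changes of −0.09, −0.04 and −0.15 on the DAC-, Carbo- and DAC+Carbo-labelled arrays, none rose on any array, and PKP2, a plakophilin that links cadherins to the plaque, fell on the DAC+Carbo-labelled array (−0.39, −0.41 and −0.72). DSP, the desmoplakin that binds keratin filaments, gave 0.00, −0.37 and −0.18, and JUP, plakoglobin, gave −0.13, 0.14 and −0.16. Of 8 hemidesmosome and plakin genes 2, 0 and 3 rose and 0, 1 and 0 fell on the DAC-, Carbo- and DAC+Carbo-labelled arrays. EPPK1 (epiplakin, which binds keratins) gave 1.39, 0.26 and 1.93, beside 1.46, 0.56 and 1.85 for KRT80. COL17A1, a hemidesmosomal collagen, gave 0.63, 0.15 and 0.94, ITGB4, the integrin of hemidesmosomes, gave 0.23, 0.50 and 0.62, and DST, dystonin, gave −0.40, −0.59 and −0.40. With median centering and relative to the median of all genes, COL17A1 gave 0.20 and 0.56 on the DAC- and DAC+Carbo-labelled arrays and ITGB4 0.15 on the latter, and by the scanner software's log ratio COL17A1 gave 0.14 on the former, all under 1.5-fold. The rises of EPPK1 on the DAC- and DAC+Carbo-labelled arrays stayed past 1.5-fold under all 9 other ways of processing, whereas the falls of DST and PKP2 did not with the mean of all their probes (−0.27 and −0.51).

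Of 11 cornified envelope genes measured, TGM1 and FLG had fitted changes past 1.5-fold on the DAC- and DAC+Carbo-labelled arrays and none on the Carbo-labelled array, the bound of FLG on the DAC+Carbo-labelled array being lower. TGM1, the transglutaminase that crosslinks the envelope, gave 1.07, 0.40 and 1.23. FLG (filaggrin), whose control was not well above background, was 1.96-fold and 1.42-fold higher by that bound on the DAC- and DAC+Carbo-labelled arrays. The other FLG probes gave 1.05, −0.04 and 0.65, and −0.03, −0.12 and 0.07. The last of these probes was not well above background on any array. Of 10 genes for keratin-binding proteins and for caspases that cleave keratins, SFN, the 14-3-3 sigma protein and a p53 target, rose on every array by 1.28, 1.07 and 1.15, and FAM83H, which recruits a casein kinase to keratin filaments, gave 0.50, 0.16 and 0.98. Of 14 epithelial transcription factor genes, ELF3 gave 0.60, 0.50 and 0.93, KLF5 0.00, −0.70 and −0.30, and KLF4 −0.24, −0.05 and −0.66, and the other 11 changed less than 1.5-fold on all 3 arrays. With median centering and relative to the median of all genes, ELF3 gave 0.29 on the DAC-labelled array, and with the mean of its probes KLF5 gave −0.44 on the Carbo-labelled array, both under 1.5-fold. Among 15 other intermediate filament genes, NES (nestin) gave −0.06, 0.85 and 1.11 and LMNB1 (lamin B1) gave −1.43, 0.06 and −0.78. NEFH, a neurofilament, had a fitted change of 1.64-fold on the Carbo-labelled array, where its control was not well above background. PRPH (peripherin), read in the strip, gave 0.62, 0.20 and 0.59. In the authors' deposited values PRPH gave −0.06 on the DAC-labelled array.

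The labelled cell type was checked on 6 colon epithelial markers, all of which had at least 1 channel well above background on every array. On the DAC-, Carbo- and DAC+Carbo-labelled arrays 1, 1 and 0 of them rose and 3, 0 and 2 fell. VIL1, the villin of the brush border, gave −0.88, 1.87 and 0.19. CDX2, an intestinal transcription factor, gave −0.03, 0.32 and −0.05, and LGALS4, galectin-4, gave 0.25, 0.28 and 0.35. CDH1 (E-cadherin), the mean of 10 spots, gave −0.89, 0.04 and −0.85, and −0.88, 0.02 and −0.86 without those in columns 1 to 9. EPCAM, in column 7, gave 1.33, −0.44 and −0.14. On the DAC-labelled array EPCAM gave 0.54 by the scanner software's log ratio and 0.14 in the authors' deposited values, both under 1.5-fold. CDH17, an intestinal cadherin whose treated channel was not well above background on the DAC- and DAC+Carbo-labelled arrays, was 1.60-fold and 1.83-fold lower there by fitted change. The summed level of the 6 markers on the linear scale was 34953, 67032 and 62828 in control cells and 52516, 55408 and 51582 in treated cells, with the low control sum on the array on which EPCAM, the brightest of them, had a low control. Of 5 mesenchymal markers 2 were above background (VIM and COL1A1) and none changed 1.5-fold, with control sums of 482, 492 and 473 and treated sums of 417, 498 and 438. Of 3 leukocyte markers PTPRC was not well above background in either channel of any array, and CD68, the brightest and also a lysosomal protein of other cells, gave 0.99, 0.40 and 1.53. Their sums were 423, 383 and 394 in control and 670, 461 and 836 in treated cells. The 2 endothelial markers were not well above background on any array, with sums from 138 to 156. The cells were a line grown from 1 cell, and any relation of the CD68 signal to the keratin changes was not tested. In bulk RNA fewer cells of a kind and less RNA per cell cannot be told apart.

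By Euclidean distance over the 3 fitted log2 changes, the 5 genes nearest to KRT17 among 18610 others included INHBA (1.00, 0.37 and 2.30, distance 0.59), SERPINA1 (1.03, 0.18 and 2.57, distance 0.64) and CHADL (0.35, 0.67 and 1.90, distance 0.64), which were above background in both channels of all arrays. SERPINA1 was read in the strip. The others were COL5A1 and KRTAP3-1, a hair keratin-associated gene. The control channel of COL5A1 was not well above background on any array and that of KRTAP3-1 not on the DAC-labelled array, so their distances have no firm size and they are given no place in the order.

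**Figure D5:**
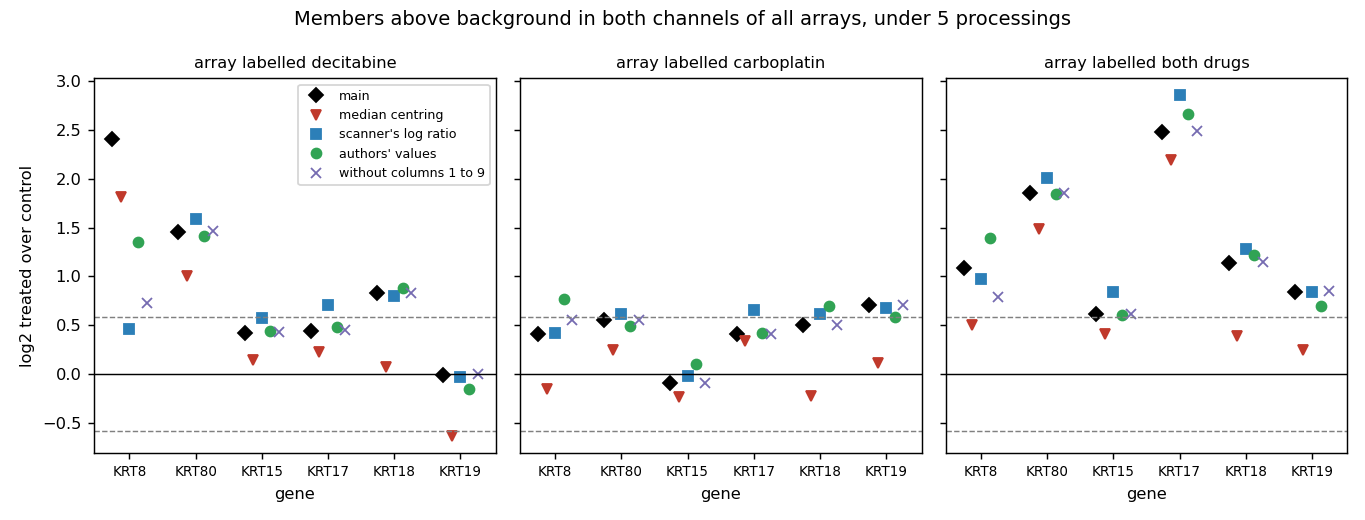
Log2 of treated over control for the 6 keratins above background in both channels of all arrays, under the main processing and 4 others, with 1 panel an array and dashed lines at 1.5-fold. KRT17 and KRT80 stay above the upper line on the DAC+Carbo-labelled array under all 5, and median centering (as centered, not relative to the median of all genes) gives lower values than the main processing for every gene, 0.39 against 1.14 for KRT18 on that array.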

How the data were processed

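Per the labels, total RNA was primed with oligo-dT, labeled with Cy5 (control) or Cy3 (treated) and hybridized to the Agilent whole genome 44K array. The authors deposited scanner files with spot intensity in each channel, a log10 ratio and quality flags, and a table of loess-normalized log2 ratios. The scale of that table is log2 by its label, its direction was set to treated over control by correlation with the scanner values, and how it was centered is not given in the sources used here. The submitters' processing notes name Agilent Feature Extraction 8.5.1.1, limma and R 3.0.2, whereas the file headers give Feature Extraction 9.5.3.1.

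Mean intensities were corrected with normexp (offset 50) in limma 3.58.1 (R 4.3.3), control spots and outlier spots (276, 111 and 89) were left out, and loess was applied within each array. Channel levels follow Aquantile scaling. The arrays hold 43376 gene spots for 41000 probes. Of these gene spots 69.0, 70.3 and 68.2 % had a control channel well above background. Probes were named through RefSeq (GRCh38.p14) by accession and then symbol, which named 29381 probes, and the brightest probe stood for a gene. KRT39 and KRT84 had no probe by that name. With 1 array a treatment no test was made, and counts use a ratio of at least 1.5. The fit was checked on simulated data. The 10 keratins and all lists were chosen with earlier results of these data known. All 10 were named, besides the other keratins (at most 10) and up to 4 genes of each other list that changed most, markers given as levels, and the 5 genes nearest to KRT17. DSP and JUP fall outside this rule and were added after their values were seen. Median centering, the scanner software's signals and ratio, the authors' values, no background subtraction, leaving out columns 1 to 9, the mean of all probes, a filter on dim probes and a ratio of at least 2 were tried as alternatives, and median centering relative to the median of all genes was added after seeing the data.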

Additional observations from a re-analysis of the deposited data

Results flagged for a closer look

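VIL1 (villin, a marker of the intestinal brush border) moved past 1.5-fold in opposite directions on the single-drug arrays, with a log2 change of −0.88 on the DAC-labelled array, 1.87 on the Carbo-labelled array and 0.19 on the DAC+Carbo-labelled array. The difference was not tested, since each treatment has 1 array.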

How the results depend on the processing

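With median centering in place of loess, 3 keratins and not 7 rose on the DAC+Carbo-labelled array and 1 fell on the DAC-labelled array (KRT19). Part of this is a shift of all genes, and relative to the median of all genes under that centering, an alternative chosen after seeing the data, 4 rose on the DAC+Carbo-labelled array and none fell, and 4 rose on the Carbo-labelled array (KRT7, KRT13, KRT20 and KRT23, all at or near background). With the scanner software's processed signals and with its log ratio, 6 and not 2 rose on the Carbo-labelled array. With a ratio of at least 2, 0 rose on that array. The other counts of keratins stayed within 1.5 times the main count under every alternative, but the genes counted could differ. With processed signals on the DAC-labelled array KRT8 (0.46) left the count and KRT17 (0.71) entered it. With median centering on the Carbo-labelled array KRT19 (0.11) left and KRT7 (0.63) and KRT13 (0.80) entered. By the log ratio KRT7 (1.24) and KRT13 (1.93), both near background, entered on the DAC+Carbo-labelled array. Of 12 keratin changes past 1.5-fold, 5 stayed past it under all 9 alternatives that recompute values, and none changed sign. Among the other genes named, PRPH on the DAC-labelled array turned to −0.06 in the authors' values. Of the called changes on the DAC-labelled array, 69.4 % of all genes were up in the main processing, 27.7 % with median centering, 67.0 % with processed signals, 49.7 % by the log ratio, 50.5 % in the authors' values and 50.9 % without columns 1 to 9. On the Carbo- and DAC+Carbo-labelled arrays it was 64.9 and 55.8 %, and with median centering 32.02 and 16.8 %. No paired analysis was possible because each treatment has 1 array. The cause of these shifts was not tested. Signal over background limits KRT7, KRT13, KRT20 and KRT23.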
